A study of Mus musculus with 6 samples.

Results

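Rdh9 and Trim24 are a pair of mouse genes that act at different points of retinoid biology, and their transcript levels were read from the livers of mice given the farnesoid X receptor (FXR) agonist GW4064 or vehicle. Both were taken from the authors' list of changed probe sets, which was selected on the GW4064 and vehicle difference of these same arrays, so the difference of each gene is given as a description, without a test. Every probe set whose symbol in that list was exactly Rdh9 or Trim24 was taken. This gave 2 genes with 1 probe set each, of the 87 genes to which a probe set could be paired and of the 22626 probe sets tested.

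The study used wild type C57BL/6J mice, and the livers fell into 2 groups of 3 mice with 1 Affymetrix array per liver. The GW4064 group received 3 doses of GW4064 at 100 mg per kg body weight, the first at 8 am, the second at 6 pm and the third at 8 am on the next day. The vehicle group received vehicle alone at the same times. The interval between the last dose and tissue collection was 2 hours, and the preceding night was spent without food in both groups, per the study's methods. No allele was altered in either group. The tissue could not be checked against its markers, because none of the 35 marker genes of hepatocytes, stellate cells, Kupffer cells, neutrophils, endothelial cells, cholangiocytes and lymphocytes had a paired probe set. The medians of the deposited values were 5.87 to 5.89 on the log2 scale in the 6 arrays.

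The liver stores most of the body's vitamin A. Retinol dehydrogenases oxidize retinol to retinal, and retinal dehydrogenases then make retinoic acid, the ligand of the retinoic acid receptors (RARs). Its 9-cis isomer can bind the retinoid X receptors (RXRs), the partners with which RARs and FXR form heterodimers on DNA. Rdh9, also called Crad3, encodes a microsomal short-chain dehydrogenase that oxidizes cis-retinols and androgens in mice. Trim24, also called TIF1 alpha, encodes a tripartite motif protein with a RING finger and a bromodomain, which binds ligand-bound nuclear receptors and holds RAR alpha activity in check in the mouse liver.

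The DNA just upstream of each gene is shown first, because FXR bound with RXR prefers 2 copies of the nuclear receptor hexamer AGGTCA facing each other across 1 base. This inverted repeat, called IR1, is written AGGTCANTGACCT. Rdh9 lies on chromosome 10 at chr10:127776405-127792697 in GRCm38.p6, and its annotated transcript starts at the first of these bases. The window printed is chr10:127776155-127776404, the 250 bases before that start, on the plus strand and taken from RefSeq. The capitals mark the only hexamer of the window and the inverted repeat that it belongs to.
Rdh9: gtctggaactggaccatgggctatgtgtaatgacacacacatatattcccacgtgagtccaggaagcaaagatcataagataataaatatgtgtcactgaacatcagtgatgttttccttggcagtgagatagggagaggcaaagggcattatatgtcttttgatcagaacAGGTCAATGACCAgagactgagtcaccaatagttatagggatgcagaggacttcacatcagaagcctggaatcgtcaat

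The repeat upstream of Rdh9 read AGGTCAATGACCA and lay at -79 to -67 from the start, at chr10:127776326-127776338. It differed from IR1 by the single substitution T13A, with positions counted from 1 at the 5′ end of IR1. Of all 32851 upstream windows of this length, from 27025 genes, 26 or 0.0791% held IR1 with at most 1 mismatch on either strand, and 2 or 0.00609% held it without a mismatch. The hexamer alone was far more common, in 14.0% of windows. Among the 87 paired genes, 65 had windows in the RefSeq table, 92 in all, and 2 of these windows held IR1 with at most 1 mismatch, that of Rdh9 and that of Saa4, a serum amyloid A gene. A match of letters is not a binding site, and FXR binding in these livers was not analysed here. The paper's supplement names Rdh9 and the related gene Rdh1 among genes with an FXR peak upstream in livers of GW4064-treated wild type mice. The window of Rdh1 held neither the hexamer nor the repeat, so such a peak was not particular to the gene with the repeat. Those FXR peaks came from the authors' earlier binding study, which was not normalized to an IgG control. The upstream region counted there is far longer than the windows searched here. The supplement gives no peak positions, so a peak cannot be placed on the repeat.

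Rdh9 stands in a row of related dehydrogenase genes on chromosome 10, between chr10:127759726 and chr10:128007648, with Rdh1, Rdh16, Rdh18-ps, Rdh19, Rdh16f2, Rdh7, Sdr9c7 and Hsd17b6. Windows were at hand for 7 of these 9 genes. The window of Rdh16, the next gene along the chromosome, matched 61.2% of the Rdh9 window after global alignment, and the others matched 44.0% to 46.4%. Of the 7 genes, 1, Rdh9 itself, held IR1 with at most 1 mismatch. Rdh16, Rdh16f2 and Rdh7 held a hexamer without the repeat. The relatives of Rdh9 had no paired probe set, so their levels are not reported here.

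Trim24 lies on chromosome 6 at chr6:37870811-37968445, and RefSeq gives windows for 2 transcript starts, 29676 bases apart. The first window, chr6:37870561-37870810, held no hexamer. It was rich in G and C, at 69.6% of its bases, and held 27 CpG dinucleotides. That of Rdh9 had 42.8% and 2 CpG, and the ratio of observed to expected CpG was 0.89 at the first start of Trim24 against 0.18 at Rdh9. The second window of Trim24, chr6:37900237-37900486, is printed on the plus strand because it held 3 hexamers, in capitals, all on the minus strand and therefore read as TGACCT.
Trim24: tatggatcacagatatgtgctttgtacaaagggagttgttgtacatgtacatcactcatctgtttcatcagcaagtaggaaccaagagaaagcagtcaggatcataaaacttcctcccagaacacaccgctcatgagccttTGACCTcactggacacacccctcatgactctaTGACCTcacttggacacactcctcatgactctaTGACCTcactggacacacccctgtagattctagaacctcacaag

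These 3 hexamers began at -109, -77 and -44 from the second start, so that successive ones were 32 and 33 bases apart. In the printed sequence the bases that follow each hexamer are nearly the same, so the 3 lie in near-copies of the same stretch. They are therefore not 3 independent matches. Of all windows, 43 or 0.131% held 3 or more hexamers, and repeats of this kind were not counted apart. No window of Trim24 held IR1 or the direct repeats of the hexamer spaced by 1, 2 or 5 bases (DR1, DR2 and DR5), even with 1 mismatch allowed. RAR and RXR favour DR2 and DR5. With 1 mismatch allowed, DR1 was in 0.484%, DR2 in 0.225% and DR5 in 0.222% of all windows. The Rdh9 window held none of the 3 direct repeats. The array does not tell which start of Trim24 a transcript came from.

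**Figure D1:**
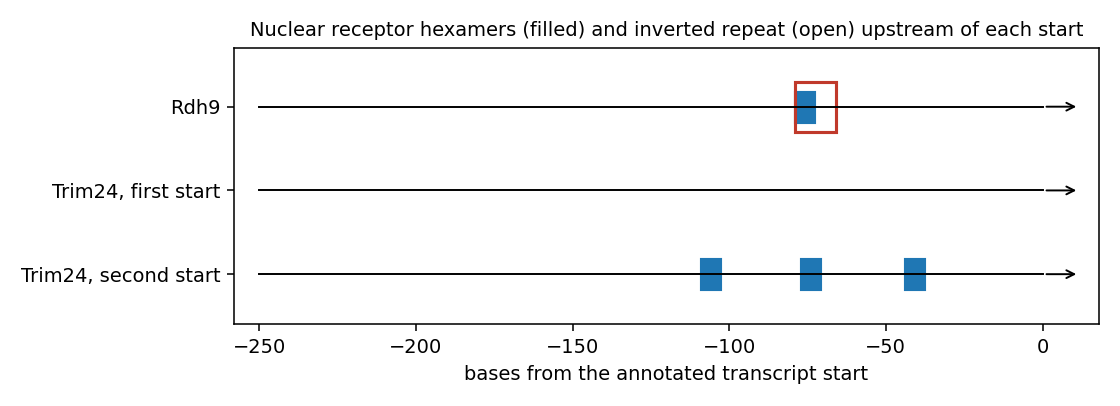
Positions of the hexamer AGGTCA on either strand (filled boxes) and of the inverted repeat IR1 with at most 1 mismatch (open box) in the 250 bases upstream of the Rdh9 start and of both Trim24 starts. The x axis is the distance in bases from the annotated transcript start (arrow); Rdh9 has 1 hexamer inside the repeat, the first start of Trim24 has none and the second has 3.

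Transcript levels of the enzyme gene Rdh9 were higher in the livers of GW4064-treated mice, but the vehicle livers were far apart. The log2 level of Rdh9 was 10.78, 10.27 and 10.41 in GW4064 replicates 1, 2 and 3, and 9.32, 10.03 and 8.76 in vehicle replicates 1, 2 and 3. The groups did not overlap, and vehicle replicate 2 came within 0.24 of the lowest GW4064 liver. Rdh9 averaged 10.49 ± 0.26 in GW4064 livers and 9.37 ± 0.63 in vehicle livers (SD, n = 3 each), a log2 difference of 1.12 or 2.17-fold. This difference was 4.28 times the SD of the GW4064 livers and 1.76 times the SD of the vehicle livers. Vehicle livers spanned 1.26 on the log2 scale, more than the difference between the groups, and GW4064 livers spanned 0.50. Of all tested probe sets, 0.451% had a larger SD among the vehicle livers than Rdh9 had. In the authors' list of 110 probe sets Rdh9 had the third largest SD among vehicle livers, where the median SD was 0.32 in GW4064 livers and 0.23 in vehicle livers. Each level comes from a whole liver, so a change in the share of cells that express a gene and a change in RNA per cell cannot be told apart.

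The probe set of Rdh9, 1427963_s_at, carries the suffix _s_at, by which Affymetrix marks probes shared by several transcripts, which may come from different genes. Part of its signal may therefore belong to relatives in the chromosome 10 row, and this was not tested. The probe set of Trim24, 1427258_at, has the suffix _at, which marks a design for a single transcript or gene.

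The coregulator gene Trim24 differed by the same amount with its spread on the other side. Its log2 level was 8.44, 7.45 and 7.79 in GW4064 replicates 1, 2 and 3, and 6.60, 6.77 and 6.96 in vehicle replicates 1, 2 and 3. GW4064 replicate 1 stood highest and the vehicle livers lay close together, with 0.50 between the lowest GW4064 and the highest vehicle liver. Trim24 averaged 7.89 ± 0.50 in GW4064 livers and 6.78 ± 0.18 in vehicle livers (SD, n = 3 each), which is again a log2 difference of 1.12 or 2.17-fold. The difference was 2.22 times the SD of the GW4064 livers and 6.33 times the SD of the vehicle livers. GW4064 livers spanned 0.99 and vehicle livers 0.35. For Trim24, 1.88% of tested probe sets had a larger SD among GW4064 livers and 22.7% among vehicle livers. For Rdh9 these shares were 9.92% among GW4064 livers and 0.451% among vehicle livers.

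**Figure D2:**
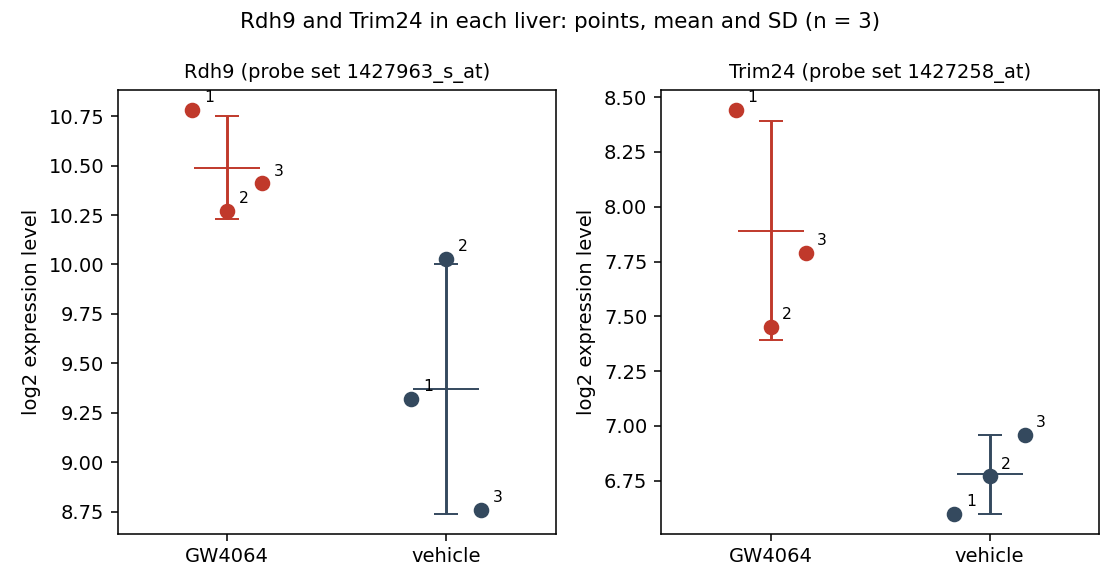
Log2 expression levels (y axis) of Rdh9 and Trim24 in each liver of the GW4064 and vehicle groups, with the mean and SD of 3 mice per group and the replicate number beside each point. Rdh9 ranges from 10.27 to 10.78 in GW4064 livers and from 8.76 to 10.03 in vehicle livers, and Trim24 from 7.45 to 8.44 in GW4064 livers and from 6.60 to 6.96 in vehicle livers.

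Both genes had all GW4064 livers above all vehicle livers, as had 6.70% of tested probe sets, and both were at least 1.5-fold higher with an unadjusted limma p under 0.05, as were 143 probe sets or 0.632%. Since both genes were chosen by this contrast, nothing follows from their meeting either criterion. By limma with Benjamini-Hochberg adjustment the adjusted p was under 0.05 for 0 of 22626 probe sets (0%), so neither gene was called changed. Without GW4064 replicate 3 the adjusted p was under 0.05 for 70 probe sets, of which 0 were those of Rdh9 or Trim24. The count of 143 was 59 by the methods' t-test, 90 without GW4064 replicate 1 and 247 without GW4064 replicate 3. An unadjusted p under 0.05 was found for 1985 probe sets by limma and for 1427 by the methods' t-test, which also gave 0 after adjustment. By size alone, 50 probe sets were at least as much higher in GW4064 livers as Rdh9 and 51 as Trim24, each gene itself included, and 38 were lower by at least that amount. With 3 against 3 mice, an exact two-sided permutation test of a single probe set cannot give a p below 0.1.

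**Figure D3:**
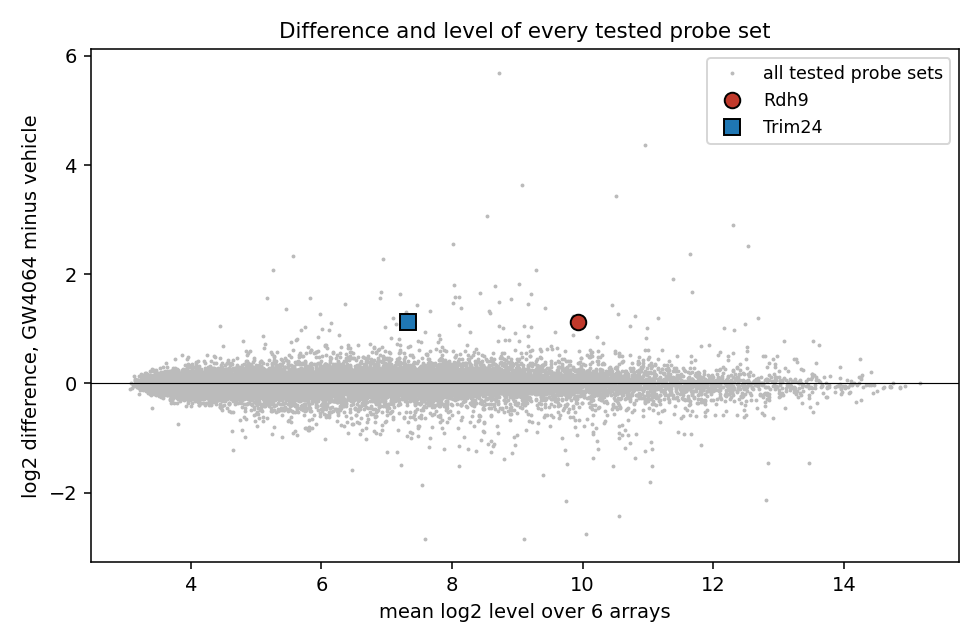
Log2 difference, GW4064 minus vehicle (y axis), against the mean log2 level over the 6 arrays (x axis) for each of the 22626 tested probe sets. Rdh9, at a level of 9.93, and Trim24, at 7.33, both lie at a difference of 1.12, with 50 and 51 probe sets at least as high, themselves included.

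The GW4064 mice ranked alike for both genes. Relative to the mean of the vehicle livers, Rdh9 was higher by 1.41, 0.90 and 1.04 in GW4064 replicates 1, 2 and 3, and Trim24 by 1.66, 0.68 and 1.01. Replicate 1 was thus the highest for each gene, replicate 3 came next and replicate 2 was lowest. A top place of replicate 1 was common, since it was the GW4064 liver farthest from vehicle for 83 of the 110 probe sets of the authors' list and for 41 of its 60 higher ones. The whole order was held by 17 of the 110 and by 7 of the 60, these genes included. For 80 of the 110, replicate 3 was the GW4064 liver nearest to vehicle, and for 22 it was replicate 2, as for Rdh9 and Trim24. In the vehicle livers the genes ran differently. Relative to the vehicle mean, Rdh9 lay at -0.05, 0.66 and -0.61 in vehicle replicates 1, 2 and 3, whereas Trim24 lay at -0.17, -0.01 and 0.18. The lowest vehicle liver for Rdh9, replicate 3, was therefore the highest for Trim24.

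Single livers moved the size of both differences without turning them. Without vehicle replicate 3, the liver with least Rdh9, its difference was 0.81 or 1.76-fold, and without vehicle replicate 2 it was 1.44 or 2.72-fold. Leaving out a GW4064 liver gave 0.97 to 1.22. For Trim24 the GW4064 livers mattered more, with 0.84 or 1.79-fold without replicate 1 and 1.34 or 2.52-fold without replicate 2. Leaving out a vehicle liver gave Trim24 differences of 1.03 to 1.21. Because neither gene overlapped between the groups, no such omission could have reversed a direction.

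**Figure D4:**
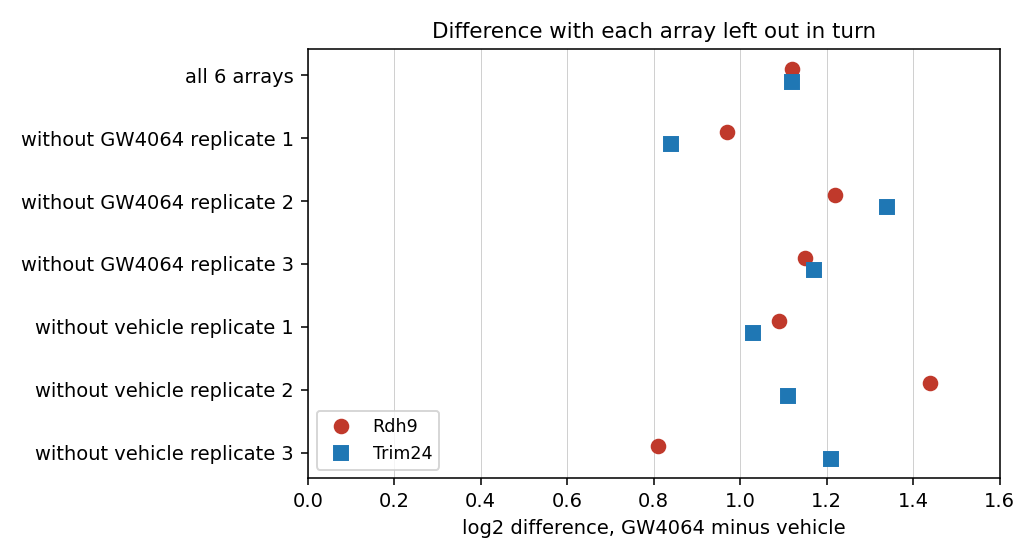
Log2 difference, GW4064 minus vehicle (x axis), of Rdh9 and Trim24 with all 6 arrays and with each array left out in turn (rows). Rdh9 ranges from 0.81 to 1.44 and is set most by vehicle livers, and Trim24 ranges from 0.84 to 1.34 and is set most by GW4064 livers.

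The genes with the most similar pattern were then sought among the other 86 genes with a paired probe set. Each probe set was set to its own vehicle mean, and likeness was the root mean square gap to Rdh9 or to Trim24 over the 6 livers, in log2 units, so that smaller is more alike. All points share the same 6 arrays, and all of these genes were listed by the authors for a difference between the groups, so a resemblance in the step between groups was built in. The gap also covers the vehicle livers, so a likeness of the nearest genes there was partly built in by the choice.

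Nearest to Rdh9 were Per2, a core clock gene, at a gap of 0.32, the water channel gene Aqp4 at 0.35, the homeobox gene Prox1 at 0.42, Derl3 of endoplasmic reticulum protein degradation at 0.43 and the growth factor gene Fgf1 at 0.44. Per2 was higher than its vehicle mean by 1.03, 0.72 and 1.56 in GW4064 replicates 1, 2 and 3, and lay at -0.05, 0.36 and -0.31 from it in vehicle replicates 1, 2 and 3. It thus shared with Rdh9 the high vehicle replicate 2 and the low vehicle replicate 3, as did Prox1 at 0.30 and -0.16, Aqp4 at 0.18 and -0.18 and Fgf1 at 0.12 and -0.11. Derl3 did not, and lay at its vehicle mean to 2 decimals in every vehicle liver. Trim24 came sixth for Rdh9, at 0.45. Over all tested probe sets, most of which could not be named, 13 others were nearer to Rdh9 than Trim24 was.

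Nearest to Trim24 were the cytolinker gene Eppk1 at 0.29, Derl3 at 0.30, Pecr, which encodes a peroxisomal enoyl-CoA reductase, at 0.31, the acyltransferase gene Lpgat1 at 0.32 and the lysosomal protease gene Ctsc at 0.32. Eppk1, higher by 1.18, 0.53 and 0.74 in GW4064 replicates 1, 2 and 3, had the same order of mice as Trim24. The other 4 were lowest in GW4064 replicate 3. Rdh9 came 26th of 86 for Trim24, at 0.45. Over all tested probe sets, 70 others were nearer to Trim24 than Rdh9 was.

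**Figure D5:**
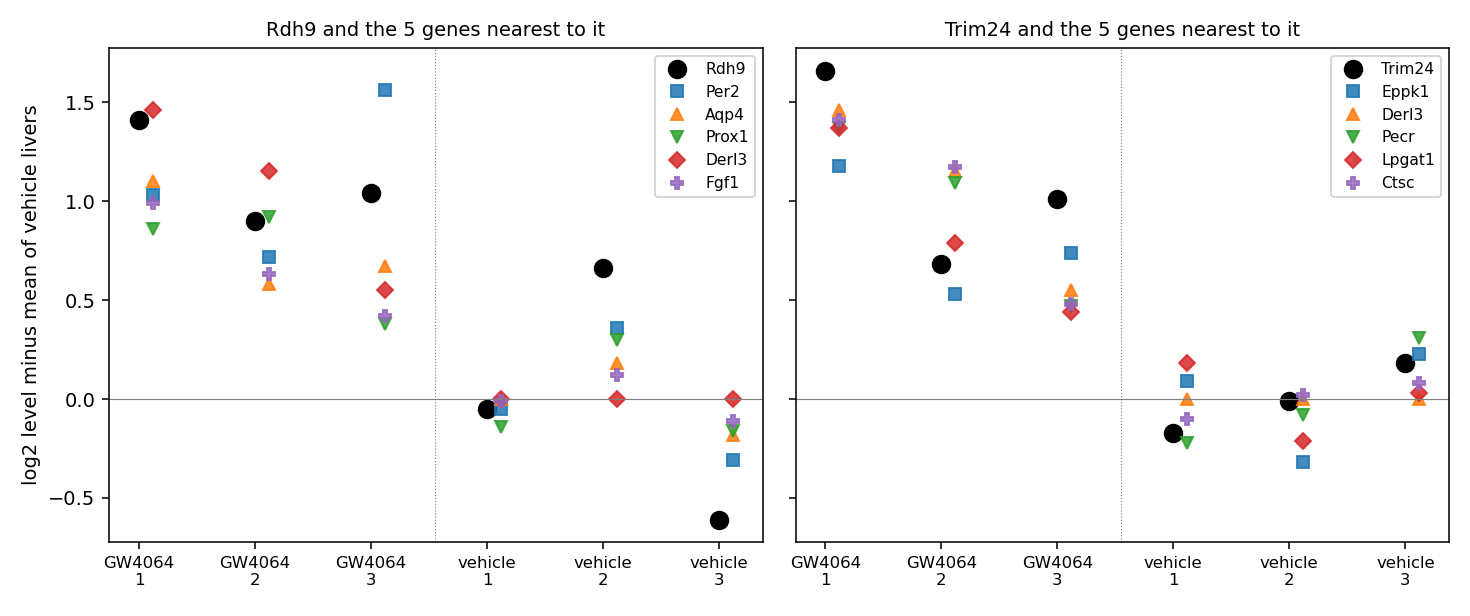
Log2 level minus the mean of the vehicle livers (y axis) in each GW4064 and vehicle liver (x axis) for Rdh9 and its 5 nearest genes and for Trim24 and its 5 nearest genes. Rdh9 is at 0.90 to 1.41 in GW4064 livers and from -0.61 to 0.66 in vehicle livers, and Per2, Aqp4, Prox1 and Fgf1 share its direction in vehicle replicates 2 and 3.

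Of a list of 90 genes of retinoid metabolism, retinoid receptors, their coregulators, retinoic acid responsive genes and genes held down by Trim24, 4 had a paired probe set. Besides Rdh9 and Trim24 these were Nr0b2, which encodes the FXR-induced corepressor SHP, and Zbtb16, which encodes a zinc finger protein first known as a fusion partner of RAR alpha in human leukemia. The pairing existed only where the authors had listed a probe set as changed, so the 4 were bound to differ and the other 86 are not analysed here. None was paired among the 5 retinal dehydrogenases, the 4 genes of retinoic acid breakdown, the 16 of storage and transport or the 10 retinoic acid responsive genes. The 4 were higher in GW4064 livers, as were 60 of the 110 probe sets of the authors' list. Their median log2 difference was 1.12, against -0.0034 over all tested probe sets, which were not selected in this way. All 4 passed the criterion of 1.5-fold and unadjusted limma p, as did 0.632% of tested probe sets in the higher direction.

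The log2 level of Nr0b2 averaged 9.55 ± 0.90 in GW4064 livers and 7.77 ± 0.24 in vehicle livers (SD, n = 3 each). It was higher than its vehicle mean by 2.81, 1.44 and 1.11 in GW4064 replicates 1, 2 and 3, a difference of 1.79 or 3.45-fold. Nr0b2 was highest in replicate 1, like Rdh9, Trim24 and most of the authors' list, and lowest in replicate 3, unlike both. The gap to Nr0b2 was 0.76 for Rdh9 and 0.57 for Trim24. Zbtb16 averaged 7.69 ± 0.34 in GW4064 livers and 6.60 ± 0.48 in vehicle livers on its brighter probe set (SD, n = 3 each), a difference of 1.09 or 2.13-fold. It was highest in GW4064 replicate 2 on that probe set, at 1.14, 1.40 and 0.73 from the vehicle mean, and highest in GW4064 replicate 3 on the other, at 0.51, 0.71 and 0.78. On that other probe set the groups overlapped.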

How the data were processed

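For each probe set the authors deposited a log2 value per array, computed with Affymetrix Power Tools. The sources used here do not give the summarisation, normalization or version. Mouse Gene 1.0 ST is the array named in the methods, but the identifiers of the probe sets, and the heading of the authors' list, belong to Mouse430A_2. That list holds a linear fold and a direction for 110 probe sets at 1.5-fold and an unadjusted p-value of at most 0.05. Only its symbols, gene identifiers and bands were used. Of its probe sets 99 had 1 symbol, 7 several and 4 none, and all 99 gene identifiers were found in RefSeq (GRCm38.p6).

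After 64 control probe sets were left out, GW4064 was compared with vehicle on the other 22626 with the moderated, two-sided test of limma 3.58.1 (R 4.3.3) and Benjamini-Hochberg adjustment. The fitting code was tested on simulated data. Dim probe sets were kept. For each gene the 5 most similar genes were named by root mean square gap. Motifs were searched on both strands of the 250 bases upstream of each start with Python 3.11.15, and windows were aligned with Biopython 1.88. The members and the gene lists were chosen with earlier results of these data known. Alternatives were another normalization, prior and test, a filter on dim probe sets, group medians, the replicate number as a block and leaving out each array. The number of arrays limits the precision. Source names number the mice separately, so replicates were separate animals.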

Additional observations from a re-analysis of the deposited data

How the results depend on the processing

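The log2 differences of Rdh9 and Trim24 kept their direction in all 20 alternatives, between 0.81 and 1.44, and moved by less than the pooled SD of the groups. Both genes were chosen by this contrast, so the kept direction adds no support. Their groups did not overlap, so leaving out an array or taking group medians could not reverse it. The largest shift was 0.32 for Rdh9 (pooled SD 0.48) and 0.28 for Trim24 (pooled SD 0.38), each above the SD of the less variable group, 0.26 in GW4064 livers for Rdh9 and 0.18 in vehicle livers for Trim24. With the replicate block both were 1.12, as a balanced design requires. The titles give numbers but no pairing, and the deviations of same-numbered mice correlated at -0.00194, 0.0533 and -0.0337 over probe sets, so the numbers were not taken as pairs. The block gave 0 probe sets at an adjusted p under 0.05 and 304 at 1.5-fold and unadjusted p under 0.05, against 283 without it. The 1.5-fold count was 97 by the methods' t-test, which takes each spread from 6 values alone. The authors' list holds 110 probe sets at these thresholds, so its count was not reproduced, and the reason was not tested. Leaving out 1 array gave 158 (without GW4064 replicate 1) to 573 (without GW4064 replicate 3), and 0 to 70 at the adjusted threshold, with 70 without GW4064 replicate 3, neither gene among them; the cause was not tested. Probe sets with all GW4064 livers above all vehicle livers numbered 1517, or 1011 when dim ones were left out, and those below 1620, or 893, since fewer were tested. Leaving out 1 array gave 2295 to 2919 and 2576 to 3387, since fewer livers overlap less often. The 4 retinoid genes met the 1.5-fold criterion under every alternative run. They were paired only because the authors had listed them at 1.5-fold on these same arrays, so nothing follows from this. Neither gene had another paired probe set, so that alternative gave no value. No background or detection measure was used, so what signal over background limits was not assessed.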
